A study of Mus musculus with 2 samples.

Results

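The genes described here encode the proteins of the cytosolic ribosome, chosen by symbol: every Rpl or Rps symbol made of a number with at most a letter and a digit after it, plus Rplp0, Rplp1, Rplp2 and Rpsa, without -ps pseudogene symbols and Rps6k kinases. The rule took 83 of the 15574 genes listed in either library, 50 of the large and 33 of the small subunit. Messenger RNA had been sequenced from T helper 17 (Th17) cells, CD4 T cells known for secreting IL-17, grown from naive mouse T cells. The library labelled CREB KO (genotype CREB KO, C57BL/6 background) was set against the library labelled wildtype (C57BL/6 background), with 1 library each. For both, naive cells spent 6 days with the cytokines IL-1 beta, IL-6, IL-23 and TGF-beta, and were stimulated on plate-bound CD3 for 4 h before RNA extraction. Neither the allele nor any Cre driver, age or number of mice is given in the sources used here. By its labels, the comparison asks how genes depend on CREB, a transcription factor that responds to cyclic AMP.

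Ribosomal proteins assemble with ribosomal RNA in the nucleolus into a small subunit, which reads the messenger RNA, and a large subunit, which joins the amino acids. The subunits need nearly all their proteins in equal numbers, and activated T cells, which grow before they divide, make many ribosomes. Most mammalian ribosomal protein messenger RNAs begin with a C and a run of pyrimidines, the terminal oligopyrimidine (TOP) motif, through which mTOR signalling and the RNA-binding protein Larp1 control their translation. CREB is known to bind the cyclic AMP response element TGACGTCA.

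Counted reads numbered 23938112 over 14853 genes in the library labelled CREB KO and 26525471 over 14634 genes in the wildtype library. The count of the targeted gene went against the label: Creb1 had 25 reads in the library labelled CREB KO and 13 in the wildtype library, a ratio of 2.08 (1.04 to 4.51). These are few reads: scaled to library size, Creb1 stood at 1.04 and 0.491 CPM in the same order. That is under the filter of a mean of 1 CPM used below. Directions below therefore refer to the library labelled CREB KO. All ratios are that library over wildtype after scaling library sizes by trimmed mean of M-values, and the range in parentheses is an exact conditional binomial 95% interval. Without replicates there is no test and no p-value. The intervals cover counting error only, and reads amplified without molecular identifiers are not independent molecules. Of the 10 Th17 marker genes, 10 were listed, with summed levels of 2332 CPM (counts scaled to library size) in the library labelled CREB KO and 3582 CPM in wildtype. Il17a and Il17f were left out as a pair after the values were seen. The other 8 then summed to 1498 CPM in the library labelled CREB KO and 1579 CPM in wildtype. Of these sums, Cd4 held 815 and 874 CPM and Cd3e 435 and 420 CPM, in the same order. Of the 9 markers with a mean of 1 CPM or more, 8 had ratios below 1, with a median log2 ratio of -0.303. The interval lay below 1 for 7, among them Il23r (ratio 0.698) and Rora (0.772), and above 1 for 1, Cd3e. That compares with 19.5% of all tested genes below 1 and 16.2% above 1. Summed B cell markers reached 2.21 CPM in the library labelled CREB KO and 2.04 CPM in wildtype, with 2 of 5 (Ms4a1 and Pax5) at 0 in both. The sums, in the same order, were 9.75 and 8.96 CPM for CD8 T cell markers (Cd8a at 0 in both) and 0.417 and 0.567 CPM for NK cell markers (Ncr1 and Klrb1c at 0 in both). Myeloid markers summed to 1.33 and 1.25 CPM (Lyz2, Adgre1 and S100a8 at 0 in both) and erythroid markers to 0.167 and 0.189 CPM (Hba-a2, Hbb-bs and Hbb-bt at 0 in both). The part of these differences in the values below was not tested. In bulk RNA, fewer cells of a type and less RNA per cell cannot be told apart, and every level here is relative to the total of its library.

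Promoter sequences from RefSeq (GRCm38.p6), which run from 250 bases before to 50 bases after the annotated start, were matched by symbol for 62 of the 83 genes. The full element TGACGTCA, a palindrome that reads alike on both strands, stood in 5 of the 62 windows, or 8.06%, against 2.03% of 27025 genes in the same table. Those 5 are shown because they hold the sequence that CREB is known to bind. Each line gives 60 bases, 5′ to 3′ on the gene's strand, with the element in capitals.
Rpl13, chr8:123102300-123102359, plus strand: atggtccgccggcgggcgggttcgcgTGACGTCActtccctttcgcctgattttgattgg
Rpl18, chr7:45717966-45718025, plus strand: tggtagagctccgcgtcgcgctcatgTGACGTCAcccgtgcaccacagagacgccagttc
Rpl26, chr11:68901406-68901465, plus strand: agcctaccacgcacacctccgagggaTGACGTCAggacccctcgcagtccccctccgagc
Rpl27a, chr7:109519072-109519131, plus strand: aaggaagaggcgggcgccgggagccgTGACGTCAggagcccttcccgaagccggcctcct
Rps9, chr7:3703958-3704017, plus strand: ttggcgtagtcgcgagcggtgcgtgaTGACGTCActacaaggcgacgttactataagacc
Relative to the annotated start, the element began at base -24 in Rpl13, -57 in Rps9, -79 in Rpl18, -97 in Rpl27a and -134 in Rpl26.

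The 5 genes with the full element had ratios above 1, within the range of the other ribosomal protein genes. Ratios above 1 were also found for 68 of all 81 tested ribosomal protein genes and 5037 of all 10462 tested genes. The interval lay above 1 for 4 of the 5, against 59.3% of the 81, and included 1 for Rpl26 (0.973 to 1.08). Rpl27a, whose protein lies in the large subunit, had 75230 reads in the library labelled CREB KO and 75851 in wildtype, a ratio of 1.09 (1.08 to 1.10), the highest of the 5. The ratios of the other 4 lay between 1.02 and 1.05. Their median log2 ratio was 0.04 for the 5 with the element and 0.05 for the 55 tested genes without it, of the 60 that had a window and a mean of 1 CPM or more. The shorter sequence TGACG, counted on either strand and contained in the full element, stood in 31 of the 62 windows (50%, against 23.0% of all genes). Median log2 ratios were 0.07 for the 31 with TGACG and 0.04 for the 29 without it. A match describes the letters of a window and is no measure of binding.

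A C followed by at least 4 pyrimidines stood at the annotated start itself in 13 of 62 windows, or 20.97%, against 3.01% of all genes. Within 5 bases of the start it stood in 29, or 46.8%, against 21.2% of all genes. The 6 start windows below are shown because they span the order of ratios: Rpl27a and Rpl28 toward its upper end, Rps6 and Rps10 near its middle, and Rps2 and Rpl4 at its lower end. Each line gives 30 bases, 15 before the annotated start and 15 from it on, with the longest pyrimidine run that comes near the start in capitals.
Rpl27a, chr7:109519180-109519209, plus strand: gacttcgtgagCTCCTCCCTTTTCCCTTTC
Rpl28, chr7:4792950-4792979, plus strand: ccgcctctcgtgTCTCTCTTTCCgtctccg
Rps6, chr4:86857353-86857382, minus strand: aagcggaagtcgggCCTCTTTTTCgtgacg
Rps10, chr17:27635230-27635259, minus strand: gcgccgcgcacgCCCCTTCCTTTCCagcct
Rps2, chr17:24720048-24720077, plus strand: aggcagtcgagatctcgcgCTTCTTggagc
Rpl4, chr9:64173372-64173401, plus strand: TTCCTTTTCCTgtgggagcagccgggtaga
In Rpl27a, Rpl28, Rps6 and Rps10 the run crossed the start, in Rps2 it began 4 bases after it, and in Rpl4 it ended before it. The runs of Rpl27a and Rpl4 go on beyond the window. These 6 are examples and do not stand for the other genes. In Rpl7a and Rpl15, whose intervals included 1, runs of 21 and 17 bases also crossed the start. In Rpl27, with a ratio of 1.11, a run of 5 bases ended before the start. By start sequence, the median log2 ratio was 0.06 for the 29 genes with a C and at least 4 pyrimidines within 5 bases. It was 0.04 for the 31 genes without them.

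Together the 83 genes took 3503577 reads in the library labelled CREB KO and 3737005 in the wildtype library. That was 14.6% (exact binomial 95% interval 14.62 to 14.65) of all counted reads in the library labelled CREB KO and 14.1% (14.08 to 14.10) in wildtype. Large-subunit genes held 8.73% of reads in the library labelled CREB KO and 8.45% in wildtype, and small-subunit genes 5.90% and 5.64%. Of the 83, 81 passed the filter of a mean of 1 CPM (48 large, 33 small), 71 had a mean of 100 CPM or more and 52 a mean of 1000 CPM or more. Among all other genes, 68 had a mean of 1000 CPM or more. Reads were concentrated to a similar degree in both libraries: the 5 genes with the most reads held 17.9% of the ribosomal protein reads in the library labelled CREB KO and 18.3% in wildtype.

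Levels were compared between genes as CPM per kilobase of annotated exon. Among the large-subunit genes, Rplp1, which encodes an acidic protein of the stalk that recruits elongation factors, had the highest level, at 5331 CPM per kilobase in the library labelled CREB KO and 4796 in wildtype. Rplp0, the base of that stalk, followed with 3360 and 3412 in the same order. The next were Rpl23a with 3115 and 2869, Rpl41 with 2770 and 2784, and Rpl36 with 2662 and 2492 CPM per kilobase in the library labelled CREB KO and in wildtype. In all, 20 of the 48 tested large-subunit genes had a mean of 1000 or more, 18 lay between 100 and 1000, and 10 lay under 100. Those 10 were Rpl37, Rpl26, Rpl7l1, Rpl35a, Rplp2, Rpl31, Rpl34, Rpl30, Rpl22l1 and Rpl22. At the lower end, Rpl31 had 29.4 in the library labelled CREB KO and 28.0 in wildtype, Rpl34 4.74 and 4.89, Rpl30 3.66 and 3.60, Rpl22l1 1.03 and 0.817, and Rpl22 0.272 and 0.584 CPM per kilobase. These genes at both ends stood in the same order in both libraries. The order of genes depended on the length used. Per kilobase of the median coding transcript, Rplp0 ranked 1 and Rplp1 ranked 5 by mean level of both libraries. By that length Rpl37, Rpl26, Rpl7l1, Rpl35a and Rplp2 lay over 100, whereas Rpl31, Rpl34, Rpl30, Rpl22l1 and Rpl22 stayed the lowest.

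Among the small-subunit genes, Rps15, which lies at the decoding side of the subunit, had the highest level, at 4172 CPM per kilobase in the library labelled CREB KO and 4040 in wildtype. Rps3a1 followed with 2740 and 2721, Rps2 with 2375 and 2434, and Rps6 with 2369 and 2276 in the library labelled CREB KO and in wildtype. Rps2 and Rps6 were close in the library labelled CREB KO and further apart in wildtype. Of the 33 small-subunit genes, 13 had a mean of 1000 or more, 15 lay between 100 and 1000, and 5 lay under 100. Those 5 were Rps24 with 82.97 in the library labelled CREB KO and 81.8 in wildtype, Rps15a with 42.4 and 39.5, Rps27a with 15.9 and 15.4, Rps27 with 6.59 and 5.87, and Rps4l with 2.30 and 2.12 CPM per kilobase. Rps27a encodes a ribosomal protein fused to ubiquitin, and Rps4l is annotated by GENCODE as a transcribed pseudogene. Here too the order depended on the length used. Per kilobase of the median coding transcript, Rps12 ranked 1 and Rps15 ranked 2 by mean level of both libraries. By that length Rps24 stood at 989 in the library labelled CREB KO and 974 in wildtype, and Rps15a at 416 and 388.

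**Figure D1:**
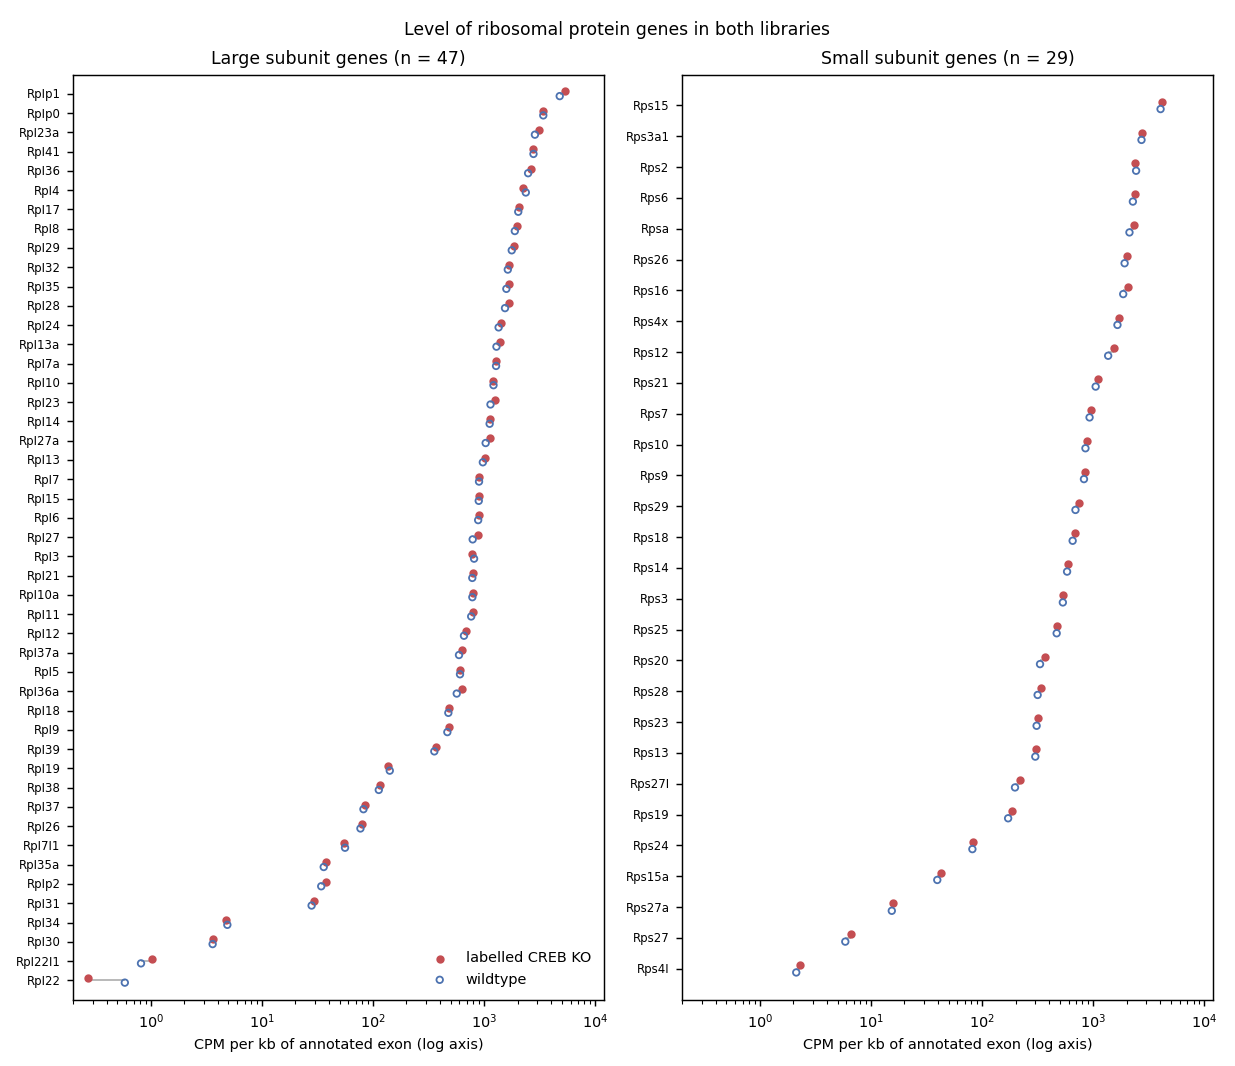
Level of ribosomal protein genes averaging 1 CPM or more, in CPM per kilobase of annotated exon on a log axis, in the library labelled CREB KO and in the wildtype library, with 47 large-subunit and 29 small-subunit genes in separate panels. The points of both libraries lie close together for most genes, Rpl22 being an exception, and the levels span 0.272 to 5331 CPM per kilobase in the library labelled CREB KO and 0.584 to 4796 in wildtype.

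The median level did not give a firm order of the subunits. Per kilobase of annotated exon, large-subunit genes had a median of 884 CPM and small-subunit genes 738 CPM in the library labelled CREB KO, a ratio of 1.20. In the wildtype library the medians were 849 and 693 CPM for large and small, a ratio of 1.23. Per kilobase of the median coding transcript, the same ratio of large over small was 0.986 in the library labelled CREB KO and 1.03 in wildtype. With the length of the RefSeq transcript it was 0.946 and 0.948, so the direction depended on which length was used.

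Most, but not all, genes at the low end had several curated transcripts. Leaving out the -like paralogs, 66 tested genes had 1 curated RefSeq transcript of an older accession number and 11 had at least 2. The count of older accessions was chosen after the values were seen. Among the genes under 100 CPM per kilobase, Rpl37, Rpl26, Rplp2, Rpl7l1, Rps15a and Rps4l have 1. The 11 genes with at least 2 had a median of 29.4 CPM per kilobase in the library labelled CREB KO and 28.0 in wildtype, with ranges of 0.272 to 186 and 0.584 to 172. The 66 genes with 1 had medians of 1068 and 1004 CPM per kilobase in the library labelled CREB KO and in wildtype. A mean under 100 CPM per kilobase was found for 8 of the 11 and for 4 of the 66. Counting curated transcripts of any accession, the medians were 116 and 113 for 19 genes with at least 2, and 1129 and 1078 for 58 genes with 1. The difference was also present among other coding genes, where 2452 genes with at least 2 older transcripts had medians of 1.87 and 1.86, and 7071 genes with 1 had medians of 9.25 and 9.39 CPM per kilobase in the library labelled CREB KO and in wildtype. The median log2 ratio was 0.04 for the 11 and 0.04 for the 66. The part of read assignment in these levels was not tested, and levels of the genes with several transcripts are given as counted.

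**Figure D2:**
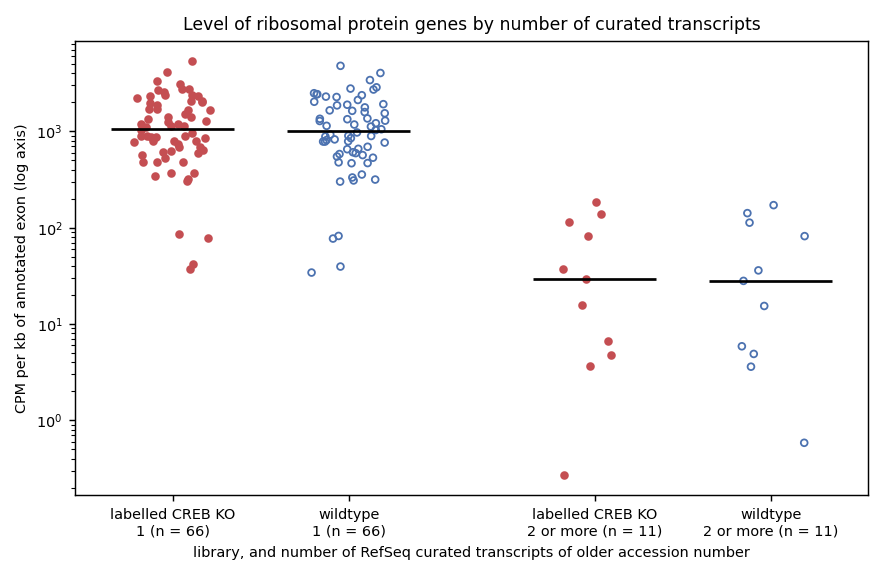
Level in CPM per kilobase of annotated exon (log axis) of ribosomal protein genes with 1 and with 2 or more curated RefSeq transcripts of older accession number, in the library labelled CREB KO and in the wildtype library, each point 1 gene. In the library labelled CREB KO the 11 genes with 2 or more lie between 0.272 and 186, and the 66 genes with 1 between 37.4 and 5331.

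Between the libraries, ribosomal protein genes stood slightly higher in the library labelled CREB KO. Summed over all 83 genes the ratio was 1.033 (1.032 to 1.035), whereas all other genes together gave 0.988. The median log2 ratio was 0.04 over the 81 tested genes, against -0.0076 over all 10462 tested genes. The ratio was above 1 for 68 of the 81, against 5037 of all 10462 tested genes. For 48 of the 81, or 59.3%, the counting interval lay above 1, against 16.2% of all tested genes, and for 5, or 6.17%, it lay below 1, against 19.5% of all tested genes. Deep coverage narrows the intervals of these genes, so the same count was taken at a mean of 100 CPM or more. There 47 of 71, or 66.2%, lay above 1, against 24% of the 2162 genes at that level, and 4 of 71, or 5.63%, lay below 1, against 34.6%. That cut does not match coverage. A mean of 1000 CPM or more was reached by 52 of these 71 genes and by 68 of the 2091 other genes. The median counting SD of the log2 ratio was 0.00897 and 0.0305 in the same order. The part of coverage in these shares was not tested. The differences were small: at a mean of 100 CPM or more every ratio was between 0.938 and 1.12. No gene was 1.5-fold or more higher (background 2.48% of tested genes), and 1 of 81, Rpl22, was 1.5-fold or more lower (background 1.5%).

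The subunits were close in ratio. The summed ratio was 1.028 (1.026 to 1.030) for the large and 1.041 (1.038 to 1.043) for the small subunit, and the large over the small gave 0.988 (0.985 to 0.991, counting error only). Sums lean on the genes with most reads. Rpsa, at a ratio of 1.09, held 175685 of the 1413194 small-subunit reads in the library labelled CREB KO, and no sum was taken without it. The median log2 ratio was 0.04 for the large and 0.05 for the small subunit, and the medians differed by -0.0046. The ratio was above 1 for 38 of 48 large-subunit and for 30 of 33 small-subunit genes, against 5037 of all 10462 tested genes. At a mean of 100 CPM or more the interval lay above 1 for 25 of 41 large-subunit genes (61.0%) and for 22 of 30 small-subunit genes (73.3%). That compares with 24% of all genes at that level. It lay below 1 for 3 of 41 (7.32%) and 1 of 30 (3.33%), against 34.6% of all genes at that level.

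Ratios varied less among ribosomal protein genes than among other genes of high level. At a mean of 100 CPM or more, the SD of the log2 ratio was 0.0574 across 71 ribosomal protein genes, 0.0608 in the large and 0.0521 in the small subunit. It was 0.122 across 2091 other genes. The median counting SD was 0.00897 for the ribosomal protein genes and 0.0305 for the others, and the spread between libraries of the same genotype is not known.

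**Figure D3:**
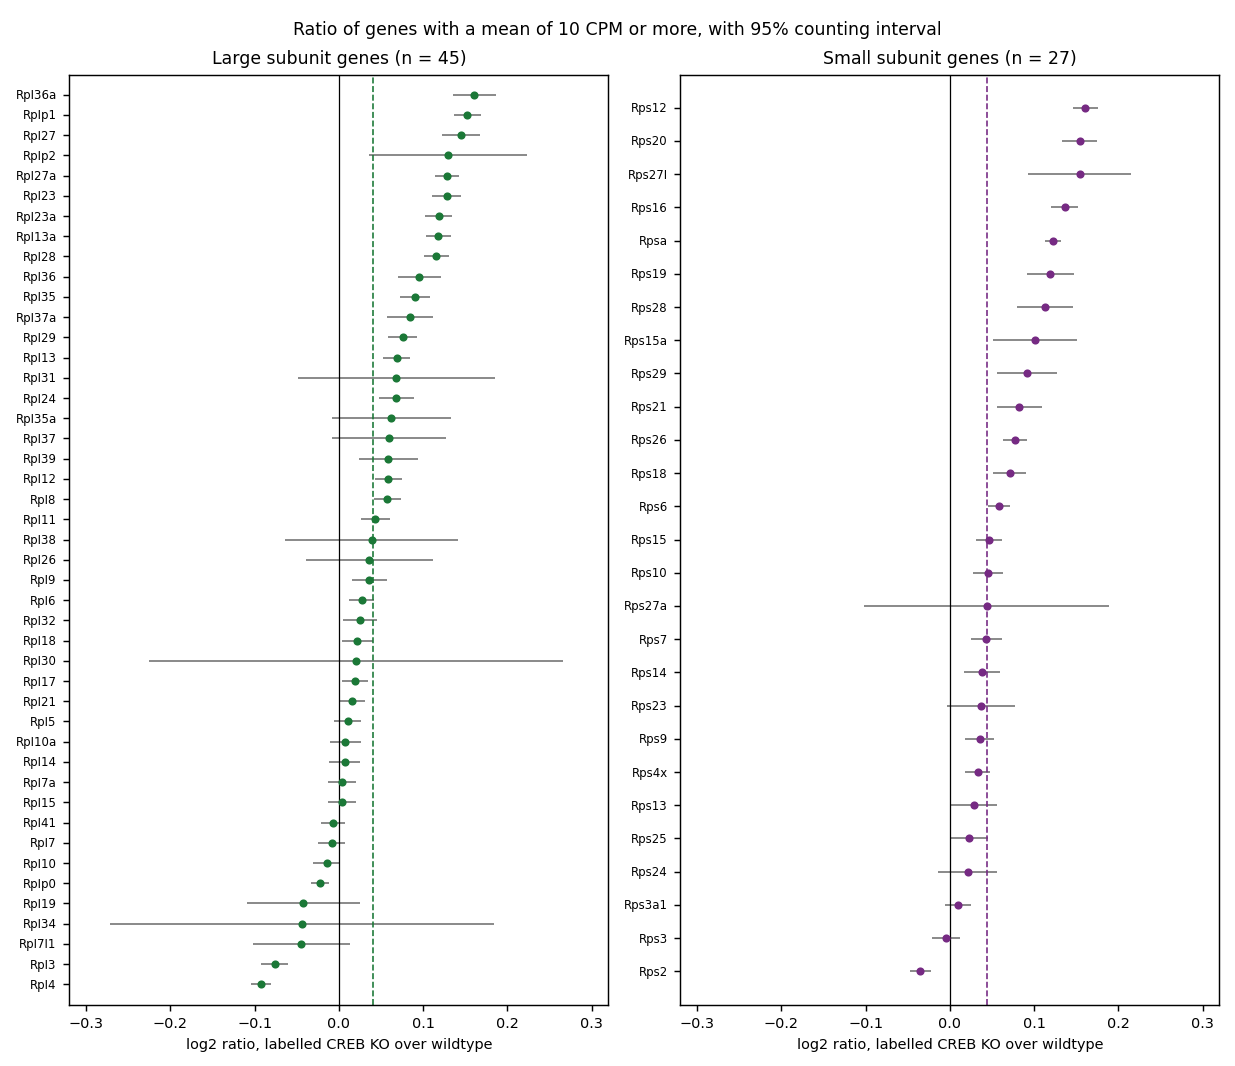
Log2 ratio of the library labelled CREB KO over wildtype for 45 large-subunit and 27 small-subunit genes averaging 10 CPM or more, with exact 95% intervals for counting error, in separate panels and ordered by ratio. The solid line marks equal levels and the dashed line the median of all genes of that subunit at that level. The points run from -0.09 (Rpl4) to 0.16 (Rpl36a and Rps12), and most lie right of the solid line.

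In the large subunit, the highest ratio at a mean of 10 CPM or more was that of Rpl36a (X chromosome, 134585654 to 134588062, GRCm38), with 25209 reads in the library labelled CREB KO and 24853 in wildtype, or 1050 and 939 CPM, a ratio of 1.12 (1.10 to 1.14). Rplp1 (chromosome 9, 61913284 to 61914542) had 63852 and 63314 reads in the library labelled CREB KO and in wildtype, a ratio of 1.11 (1.10 to 1.12). Rpl27 had a ratio of 1.11 (1.09 to 1.12), and Rplp2, Rpl27a and Rpl23 each had 1.09. With Rpl23a, Rpl13a and Rpl28, 9 large-subunit genes had an interval above 1 and a ratio of 1.08 or more. In both subunits the cut at 1.08 only divides the list, and the share of all genes past it was not counted. An interval above 1 of any size was found for 16.2% of all tested genes. Another 17 had an interval above 1 and ratios of 1.01 to 1.07, among them Rpl36, Rpl35, Rpl37a, Rpl29, Rpl13, Rpl24, Rpl39, Rpl12, Rpl8, Rpl11, Rpl9, Rpl6, Rpl32, Rpl18, Rpl17 and Rpl21.

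At the other end were Rpl4 and Rpl3, which encode large proteins that reach deep into the ribosomal RNA. Rpl4 (chromosome 9, 64173375 to 64178666) had 107348 reads in the library labelled CREB KO and 126107 in wildtype, or 4472 and 4767 CPM, a ratio of 0.938 (0.931 to 0.946). Rpl3 (chromosome 15, 80077791 to 80091868) had 58753 reads in the library labelled CREB KO and 68279 in wildtype, a ratio of 0.948 (0.938 to 0.959). Rplp0 had 133777 and 149727 reads in the same order, a ratio of 0.985 (0.978 to 0.992). These 3 and Rpl22 were the large-subunit genes whose interval lay below 1. Rpl7l1 (0.969), Rpl34 (0.970) and Rpl19 (0.971) also had low ratios, with intervals that included 1. The other genes of 100 CPM or more whose interval included 1 were Rpl35a, Rpl37, Rpl26, Rpl5, Rpl10a, Rpl14, Rpl7a, Rpl15, Rpl41, Rpl7 and Rpl10, and with Rpl19 and Rpl7l1 these 13 genes had ratios of 0.969 to 1.04. The remaining genes whose interval included 1 were Rpl22l1, Rpl31, Rpl38, Rpl30 and Rpl34, with fewer reads.

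In the small subunit, Rps12 (chromosome 10, 23785183 to 23787275) had the highest ratio at a mean of 10 CPM or more, with 74157 reads in the library labelled CREB KO and 73112 in wildtype, or 3090 and 2764 CPM, a ratio of 1.12 (1.11 to 1.13). Rps20 had 36200 and 35856 reads in the same order, a ratio of 1.11 (1.10 to 1.13). Rpsa (chromosome 9, 120127689 to 120132369), which encodes a protein also known as a laminin receptor, had more reads than any other ribosomal protein gene. Its counts were 175685 in the library labelled CREB KO and 177818 in wildtype, a ratio of 1.09 (1.08 to 1.10). Rps27l, Rps16, Rps19 and Rps28 also had ratios of 1.08 or more and intervals above 1. Another 15 small-subunit genes had an interval above 1 and ratios of 1.02 to 1.07, among them Rps15a, Rps29, Rps21, Rps26, Rps18, Rps6, Rps15, Rps10, Rps7, Rps14, Rps9, Rps4x, Rps13 and Rps25.

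Only Rps2, of the 33 small-subunit genes, had an interval below 1. Rps2 (chromosome 17, 24718116 to 24721929), whose protein helps form the messenger RNA entry channel, had 104338 reads in the library labelled CREB KO and 117815 in wildtype, a ratio of 0.976 (0.968 to 0.984). For 10 small-subunit genes the interval included 1, among them Rps3 (0.997), Rps3a1 (1.01), Rps24 (1.01) and Rps23 (1.03), and also Rps27, Rps4l and Rps27a, which had means under 100 CPM.

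Genes grouped by the role of their proteins did not all share a direction. The counts below stand beside 16.2% of all tested genes and 59.3% of ribosomal protein genes with an interval above 1, and 19.5% and 6.17% with an interval below 1, and nothing particular to a role is read from groups this small. Of the 4 stalk genes, Rplp1, Rplp2 and Rpl12 had intervals above 1 and Rplp0 an interval below 1. Rplp2 had 1862 reads in the library labelled CREB KO and 1876 in wildtype, a ratio of 1.09 (1.03 to 1.17), and Rpl12 a ratio of 1.04 (1.03 to 1.05). Of the 3 genes whose free proteins bind Mdm2, the ubiquitin ligase of p53, Rpl11 (1.03, 1.02 to 1.04) and Rpl23 (1.09, 1.08 to 1.11) had intervals above 1, and Rpl5 (1.01, 0.996 to 1.02) had an interval that included 1. Among 9 genes whose proteins line or surround the exit tunnel for the nascent chain, 4 had intervals above 1 and Rpl4 an interval below 1. Among 6 genes of the decoding region and messenger RNA channel, 3 (Rps15, Rps26 and Rps28) had intervals above 1 and Rps2 an interval below 1.

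Mutations in some ribosomal protein genes cause Diamond-Blackfan anaemia in humans, a failure of red cell production. Of the 9 such genes listed, 9 had ratios above 1, as did 68 of the 81 tested ribosomal protein genes. For 6 of the 9 (66.7%) the interval lay above 1. Each had a mean of 100 CPM or more, where the share above 1 was 66.2% of all ribosomal protein genes and 24% of all genes. Rps19, the most often mutated of them, had 20955 reads in the library labelled CREB KO and 21261 in wildtype, a ratio of 1.09 (1.07 to 1.11). Rps26 had a ratio of 1.06 (1.04 to 1.07), Rps10 of 1.03 (1.02 to 1.05) and Rps7 of 1.03 (1.02 to 1.04). For Rpl35a, Rps24 and Rpl5 the interval included 1. Of 4 genes with known signalling roles, Rps6, the substrate of S6 kinases, had 90181 and 95481 reads in the library labelled CREB KO and in wildtype, a ratio of 1.04 (1.03 to 1.05). Rpl13a, part of an interferon-induced complex that silences translation, had a ratio of 1.09 (1.07 to 1.10), Rpsa stood at 1.09, and Rps3 at 0.997.

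Several ribosomal protein genes have a paralog of the same family. Rpl22 (chromosome 4, 152325742 to 152334071), which is needed for the development of alpha-beta T cells in mice, had 19 reads in the library labelled CREB KO and 45 in wildtype, or 2.12-fold lower (1.23 to 3.89). Rpl22l1 (chromosome 3, 28805436 to 28807424), its paralog, had 49 and 43 reads in the same order, a ratio of 1.25 (0.817 to 1.94). Rpl22l1 thus made up 72.1% (59.9 to 82.3) of the reads of the pair in the library labelled CREB KO and 48.9% (38.1 to 59.8) in wildtype. Both genes have several curated transcripts of older accession number, lie among the lowest levels and rest on fewer than 100 reads per library, and neither ratio has a replicate.

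Most other pairs were split nearly alike in both libraries. Rps27l held 96.3% of the reads of Rps27 and Rps27l in the library labelled CREB KO and 96.3% in wildtype. Rps27 itself had 165 and 162 reads in the same order, and 98.6% of its 50-base stretches also occur in another gene. Rpl7l1 held 7.31% of its pair in the library labelled CREB KO and 7.49% in wildtype, and Rps4l 0.0785% and 0.0742%. Rpl36al, which the symbol rule does not take, held 27.0% (26.5 to 27.4) of the reads of Rpl36a and Rpl36al in the library labelled CREB KO and 28.5% (28.0 to 29.0) in wildtype, and these intervals do not overlap. Under a mean of 1 CPM were Rpl39l, with 6 and 5 reads, and the muscle paralog Rpl3l, with 0 reads in the library labelled CREB KO and 1 in wildtype. At 0 reads the library labelled CREB KO allows up to 0.125 CPM of Rpl3l, by a limit of 3 counts. Rpl10l was not listed in either library.

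Among length bins, the shortest ribosomal protein messages had the highest median ratio. By median coding transcript length, the 11 genes under 500 bases with a mean of 100 CPM or more had a median log2 ratio of 0.11, and the 22 genes of 500 to 700 bases 0.07. The 16 genes of 700 to 900 bases, the 15 of 900 to 1200 and the 7 of 1200 or more had 0.03, 0.02 and 0.03. All bins but that of 500 to 700 bases hold fewer than 20 genes. Other genes of that level in the same bins had 0.03 (43 genes), 0.00077 (140 genes), -0.02 (199 genes), -0.03 (170 genes) and -0.02 (1472 genes). Across all 71 ribosomal protein genes the log2 ratio correlated with log2 length at a Pearson r of -0.24 and a Spearman rho of -0.37, and with the RefSeq transcript length at -0.21 and -0.30. Across the 41 large-subunit genes r was -0.49 and rho -0.50 (-0.44 and -0.42 with the RefSeq length), and without Rpl3 and Rpl4 -0.44 and -0.46 (-0.38 and -0.35 with the RefSeq length). Across the 30 small-subunit genes the values were 0.05 and -0.22 (0.08 and -0.18 with the RefSeq length), and without Rps20 and Rpsa, whose annotated coding transcripts are long, -0.43 and -0.46. With the RefSeq length these last values were -0.19 and -0.41, so the relation in the small subunit depended on those genes and on the length used. Across 2024 other genes they were 0.03 and 0.02. These correlations describe genes within the same pair of libraries and have no p-value, and the pairs left out were chosen after the values were seen. For GC content, the ribosomal protein genes gave an r of -0.02 and a rho of 0.0061, whereas 2036 other genes gave 0.30 and 0.35. The part of fragment length or RNA quality in these relations was not tested.

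**Figure D4:**
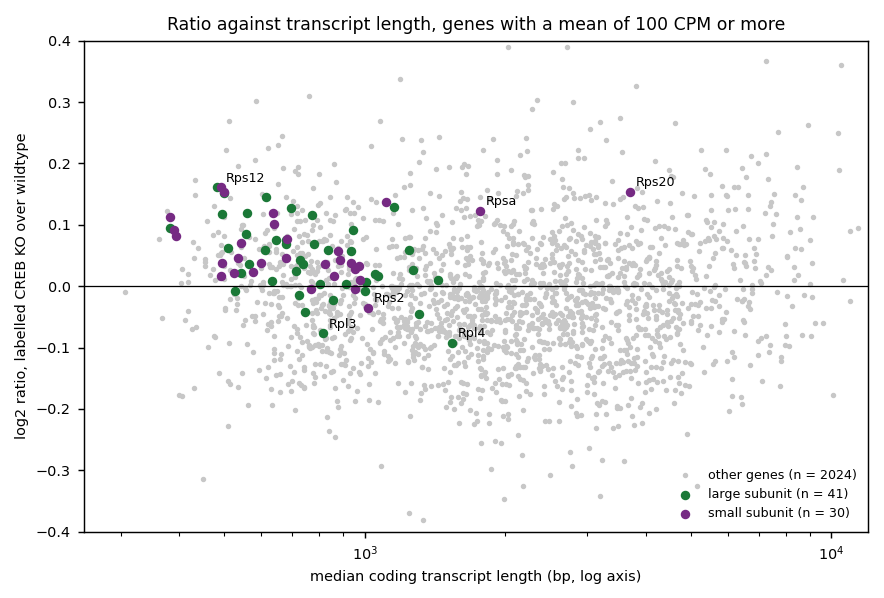
Log2 ratio of the library labelled CREB KO over wildtype against the median coding transcript length in bases (log axis) for genes averaging 100 CPM or more, with large-subunit genes, small-subunit genes and 2024 other genes as separate points, 18 of the others lying outside the axes. The 11 ribosomal protein genes under 500 bases have a median of 0.11, the highest of their length bins.

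Near-identical copies limit how exactly the reads of these genes can be assigned. For 80 of the 83, at least 1 50-base stretch of the transcripts also occurs in another gene, in each case including an annotated pseudogene, and for 47 at least 50% of such stretches do. The median log2 ratio was 0.04 for those 47 and 0.06 for the 34 other tested genes. The 5 listed -ps pseudogene symbols together held 458 reads in the library labelled CREB KO and 504 in wildtype. Exons of 38 genes overlap another annotated gene on either strand. Reads of overlaps on opposite strands cannot be told apart without knowing the strand setting, which would not separate overlaps on the same strand. The 83 genes lie on 19 chromosomes, with 14 on chromosome 7 and 4 on the X chromosome, and 30 of them host 58 small nucleolar RNA genes in their span. Median log2 ratios were 0.03 for the 30 host genes and 0.05 for the 51 other tested genes.

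Genes that work with the ribosomal proteins were counted in the same way, with the same background of 16.2% above and 19.5% below 1, or 24% and 34.6% at a mean of 100 CPM or more. Of 4 listed subunit genes outside the symbol rule, 2 had intervals above 1, among them Rpl36al (1.04, 1.01 to 1.07), and Fau (0.976) and Gnb2l1, which encodes Rack1 (0.994), had intervals that included 1. Of 13 other genes whose messages carry a TOP motif, 3 had intervals above 1 and 8 below 1, with a median log2 ratio of -0.05. Eef1a1, which delivers transfer RNAs, had a ratio of 0.965 (0.960 to 0.969), Pabpc1, the poly(A)-binding protein, 0.896 (0.887 to 0.905), and Tpt1 0.816 (0.809 to 0.823), whereas Eef2, the translocation factor, had 1.04 (1.04 to 1.05). Of 31 tested ribosome assembly genes, none had an interval above 1 and 16 had intervals below 1, with a median log2 ratio of -0.09. Among them were the nucleolar proteins Ncl at 0.890 (0.877 to 0.902), Nop56 at 0.914 (0.894 to 0.936), Ddx21 at 0.896 (0.871 to 0.922) and Rrs1 at 0.857 (0.803 to 0.914). At a mean of 100 CPM or more, 9 of 16 assembly genes (56.2%) and 8 of 11 other TOP genes (72.7%) had intervals below 1. Of 11 tested RNA polymerase I genes, 1 had an interval below 1 and none above it, with a median log2 ratio of -0.01. Of 11 tested regulators, 4 had intervals above 1, including Larp1 (1.09, 1.07 to 1.12) and Mtor (1.09, 1.03 to 1.16), and 1, Eif4ebp1, below 1 (0.949, 0.912 to 0.988). None of the tested genes in these 5 lists was 1.5-fold apart with an interval that excluded 1, and no test of the lists against each other was made.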

How the data were processed

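RNA was measured in 2 libraries, 1 labelled CREB KO and 1 wildtype. The authors deposited whole-number counts of uniquely assigned reads per gene symbol, not normalized, as the file headers show. HTSeq, bcl2fastq and the build mm10 (GRCm38) appear in the submitters' processing notes. Neither aligner, annotation, strand setting nor overlap mode is given in the sources used here. Genes listed in 1 file only were taken as 0 in the other.

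Counts were scaled by trimmed mean of M-values (edgeR 4.0.16, R 4.3.3), and ratios used a prior count of 0.5, in proportion to library size. Genes averaging at least 1 CPM entered, and were held against the fold rule of 1.5 with an exact conditional binomial 95% interval excluding 1. The quasi-likelihood test of edgeR could not be fitted to single libraries. All 10462 genes went through the same steps, which were tested on simulated counts. The simulated counts held counting error only, so they do not test the steps against variation between libraries. Exon unions, positions and transcript lengths come from GENCODE M21 (1-based, GRCm38), curated transcripts and promoters from RefSeq (GRCm38.p6). Protein sequences were not used here. Computations used Python 3.11.15, numpy 2.4.6, scipy 1.17.1, pandas 2.3.3 and matplotlib 3.10.9. Alternatives were scaling by total counts, DESeq2 1.42.0 size factors or upper quartiles, scaling without the ribosomal protein genes, other filters, a prior count of 5, thinning, and other lengths.

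The genes, roles and lists were chosen with earlier results of these data known. Values in full go to the 5 highest and 5 lowest levels and the 6 highest and 6 lowest ratios per subunit, to genes under 10 CPM, to the role groups and to paralog pairs. A few genes taken by these rules are not reported here by name and are not drawn in the plots that label genes, but they enter every count, sum and median.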

Additional observations from a re-analysis of the deposited data

How the results depend on the processing

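Scaling by total counts moved the summed ratio to 1.034 for the large subunit, 1.046 for the small subunit and 1.039 for all ribosomal protein genes. Under that scaling the ratios of 3 genes, among them Rpl41 and Rps3, passed from just under to just over 1. With a mean of 10 CPM or more, 0 genes were 1.5-fold lower, because Rpl22 is below that level. Median levels per kilobase moved most. For the large subunit in the library labelled CREB KO, the median was 832.755 CPM without a filter, 896.84 with a mean of 10 CPM or more and also without the -like paralogs, 2329.15 with coding transcript length, 2165.53 with RefSeq transcript length and 1075.22 for genes with 1 older curated transcript. In wildtype, in the same order of settings, the large-subunit median was 801.351, 890.447, 2316.66, 2015.7 and 1004.32 CPM. For the small subunit the median in the library labelled CREB KO was 846.475 with a mean of 10 CPM or more and also without the -like paralogs, 2361.8 with coding transcript length, 2290.24 with RefSeq transcript length and 917.327 for genes with 1 older curated transcript. In wildtype, in the same order of settings, it was 825.914, 2256.12, 2126.47 and 889.486 CPM. The division by a shorter length accounts for the higher levels by construction. The settings for RefSeq length and for 1 older transcript were chosen after seeing the data. With the wildtype library thinned, Rpl30 passed to just under 1. The other 84 summary values and the 498 single-gene values under the alternatives stayed within a counting interval of the main value or, for counts of genes, within 1.5 times. For a median log2 ratio, that interval had the median width among its genes. For a median level it was the counting error of the gene nearest the median. The summed ratio of large over small cannot move with the scaling, by construction. The median log2 ratio of all tested genes was -0.0076 under the main scaling. Under the other scalings it lay between -0.0085 (DESeq2 size factors) and 4.3e-05 (total counts).

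No paired analysis was possible because each group has 1 library. For the same reason no library was left out, and no value here separates genotype from culture or library preparation. Depth limits Rpl22, Rpl22l1, Rpl39l, Rpl3l, Rps27 and Rps4l, each with fewer than 200 reads per library.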
